A study of Homo sapiens with 10 samples.

Results

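The genes described here are 9 transcription factors and cofactors of kidney development, namely PAX2, PAX8, WT1, LHX1, SIX2, SALL1, EYA1, GATA3 and OSR1. They were chosen by name for their role in the embryonic kidney, and all 9 were found among the 20033 protein-coding genes of chromosomes 1 to 22, X and Y in GENCODE release 44. Each was examined over its gene body and 20 kb on either side, a window that ran from 44.3 kb at SIX2 to 435 kb at EYA1 and came to 1025 kb over the 9 genes. The data are lists of ChIP-seq peaks from HEK293T, an established human embryonic kidney cell line. The study asked how CGGBP1, a protein that binds CGG repeats, affects where the DNA-binding protein CTCF sits and how histone marks lie around it. Cells received lentiviruses with a non-targeting shRNA (CT, with endogenous CGGBP1), with shRNA against CGGBP1 (KD, aimed at several regions of its coding sequence) or with a construct that overexpresses CGGBP1 (OE), and CT and KD cells were kept under puromycin. CTCF was profiled in CT, KD and OE, and H3K4me3, H3K9me3 and H3K27me3 in CT and KD. A single input library, whose source cells the labels do not name, was also sequenced. Each mark and condition had 1 library, so no difference between conditions has a replicate check and no test was made. The lists hold positions without a score, they give no level of CGGBP1, and a missing peak says only that the position did not pass the threshold of the peak caller.

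The kidney arises from the intermediate mesoderm. OSR1 is among the earliest factors of that tissue, and LHX1, PAX2 and PAX8 act in the nephric lineage that follows. PAX2 and PAX8 are closely related paired-box proteins with overlapping roles. GATA3 acts in the nephric duct and the ureteric bud, the epithelial tube that branches into the collecting system. SIX2, SALL1, EYA1 and WT1 act in the surrounding mesenchyme, from which nephrons form. SIX2 keeps nephron progenitors undifferentiated, EYA1 is a phosphatase and coactivator that works with factors of the same family as SIX2, SALL1 is a zinc finger protein needed for the ureteric bud to enter the mesenchyme, and WT1 is a zinc finger protein later held in podocytes and named for Wilms tumour. H3K4me3 marks promoters that are active or poised for activity, H3K27me3 is laid down by Polycomb complexes and often covers silent developmental regulators, and H3K9me3 marks constitutive heterochromatin. CTCF binds a long sequence motif and takes part in insulators and chromatin loops.

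H3K4me3 separated the genes into 3 groups. A promoter was taken as 1 kb on either side of the start of the main transcript (MANE Select), and a peak counted if it overlapped by at least 1 bp. Positions are those of hg38, counted from 1. PAX2, WT1, LHX1, SIX2, SALL1, EYA1 and GATA3 had a promoter peak in both CT and KD. OSR1 had such a peak in CT alone, and PAX8 had none in either list. The counts were thus 8 of 9 genes in CT, where 69.7% of all protein-coding genes had a promoter peak, and 7 of 9 in KD, where 70.4% did. A promoter peak in CT without one in KD was rare among all genes (0.359%), and the opposite was found in 0.998% and in none of the 9. Among peaks at least 1000 bp wide the counts were 5 of 9 in CT and 6 of 9 in KD. The order of the lists thus turned with peak width, as SALL1 had such a peak in KD alone and OSR1 in neither list. The share of all genes at that width was not computed, so these counts have no background beside them.

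**Figure D1:**
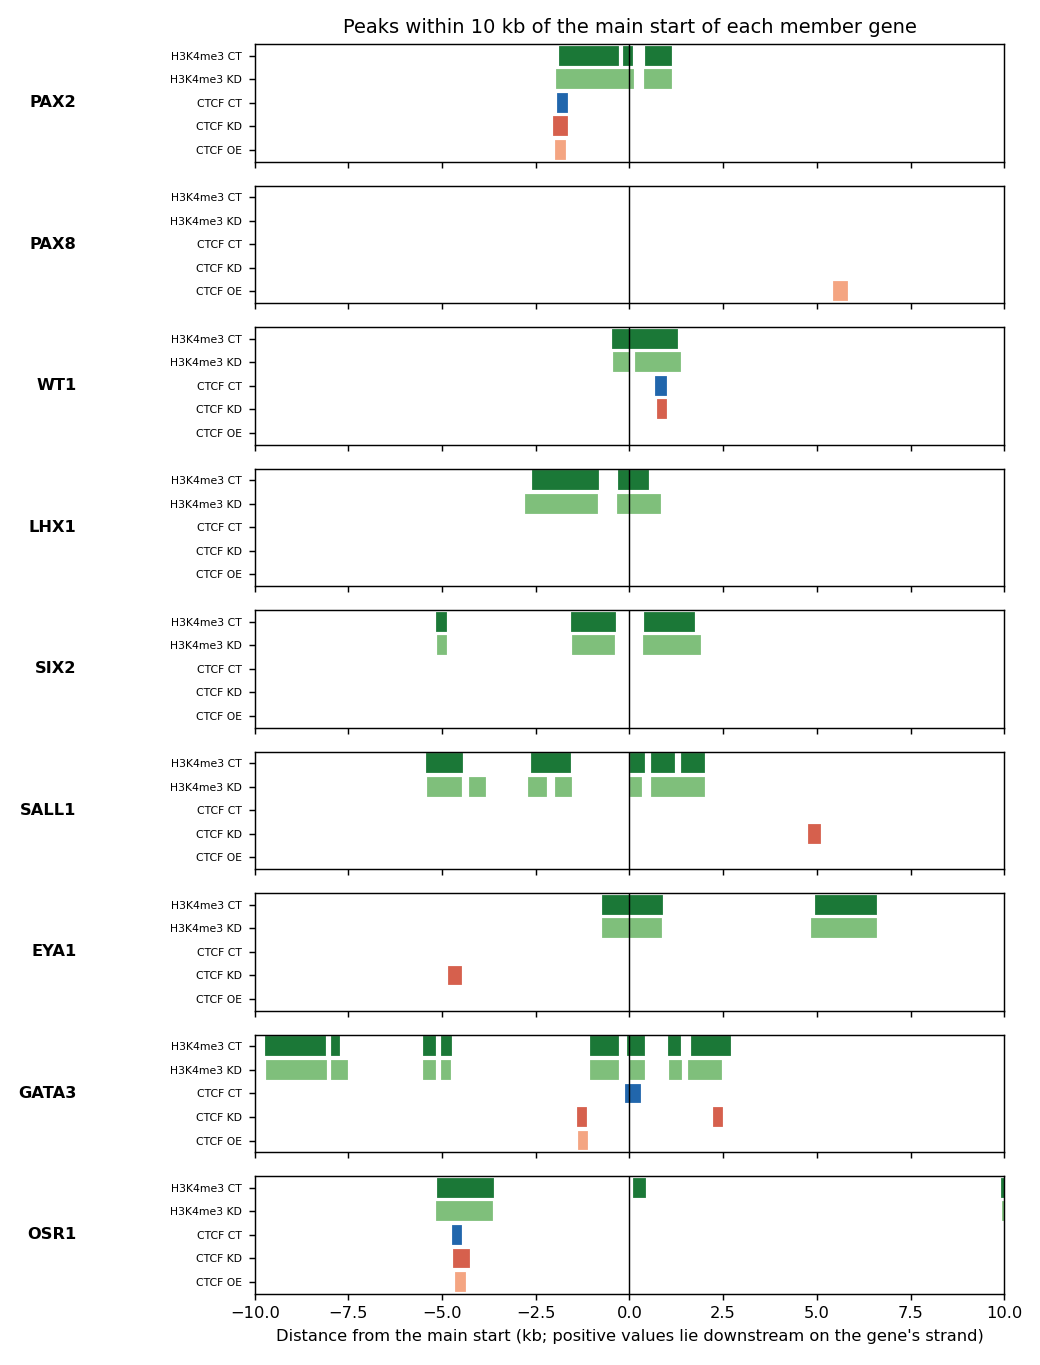
Peaks within 10 kb of the main start of the 9 genes, drawn as boxes for H3K4me3 in CT and KD and CTCF in CT, KD and OE; the horizontal axis is the distance from the start in kb, with positive values downstream on the strand of the gene. PAX8 has no H3K4me3 box, and at SIX2 the boxes lie on either side of the start in both CT and KD.

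Among the factors of the early nephric lineage, PAX2 (chr10:100735396-100829944, plus strand) carried its H3K4me3 around the main start at 100745582 and not at the outermost start about 10 kb upstream. Its window held 5 peaks with 5018 bases in CT and 6 peaks with 5306 bases in KD. In CT a peak of 1556 bp ended shortly before the start and a peak of 232 bp covered it, and in KD a single peak of 2017 bp spanned both stretches. A peak of 679 bp in CT and 675 bp in KD followed in an intron shortly past the main start. A further block of H3K4me3 lay upstream of the gene, with a peak of 2317 bp in CT and peaks of 1284 bp and 870 bp in KD. The 250 bases before the main start, read from the RefSeq promoter table (GRCh38.p14), are shown because H3K4me3 peaks of both conditions reached over them. Capitals mark CpG dinucleotides, of which there were 15.

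PAX2 promoter, chr10:100745332-100745581, plus strand: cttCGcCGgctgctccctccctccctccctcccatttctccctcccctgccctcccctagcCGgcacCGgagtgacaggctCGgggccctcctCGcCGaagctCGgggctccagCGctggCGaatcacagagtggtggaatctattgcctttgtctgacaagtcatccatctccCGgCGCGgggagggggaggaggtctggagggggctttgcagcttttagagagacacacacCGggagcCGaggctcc

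PAX8 (chr2:113215997-113278921, minus strand) had no base under an H3K4me3 peak within 5 kb of its start at 113278921, in CT or in KD. None of the 6 distinct starts of its protein-coding transcripts had a peak within 1 kb. The window as a whole was not empty, with 3 peaks and 2411 bases in CT and 4 peaks and 2891 bases in KD. The widest of them in both lists, 1288 bp in CT and 1229 bp in KD, lay past the 3′ end of the gene inside the neighbouring gene PSD4. A peak of 929 bp in CT and 796 bp in KD lay in an untranslated exon of other PAX8 transcripts, 53064 bp and 53027 bp downstream of the start, where the antisense lncRNA PAX8-AS1 runs in the opposite direction. Another, in an intron, measured 194 bp in CT and 613 bp in KD, and the remaining KD peak, 253 bp wide, lay in PSD4. The promoter of PAX8 is printed because no H3K4me3 peak lay within 1 kb of the main start in either condition. Its 11 CpG dinucleotides are in capitals.

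PAX8 promoter, chr2:113278922-113279171, minus strand: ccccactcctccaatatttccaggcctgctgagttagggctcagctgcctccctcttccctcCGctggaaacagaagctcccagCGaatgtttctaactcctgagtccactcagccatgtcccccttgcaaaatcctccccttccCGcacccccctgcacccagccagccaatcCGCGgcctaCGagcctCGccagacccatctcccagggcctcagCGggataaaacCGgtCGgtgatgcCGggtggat

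LHX1 (chr17:36936785-36944612, plus strand), a LIM homeodomain factor, had 4 peaks in each list, with 4463 bases in CT and 5286 in KD, or 9.33% and 11.1% of its window. The peak over its main start measured 775 bp in CT and 1126 bp in KD. The peak upstream, 1735 bp in CT and 1895 bp in KD, lay inside the divergent lncRNA LHX1-DT and just past its start, which is 805 bp from that of LHX1. Farther downstream, 2 peaks of CT and a peak of 2074 bp in KD lay around the start of the neighbouring gene AATF, 11450 bp from the start of LHX1. The remaining KD peak, 191 bp wide, had no counterpart in CT.

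OSR1 (chr2:19351485-19358623, minus strand) had 3 peaks with 3152 bases in CT and 2 peaks with 2803 bases in KD. The promoter peak of CT, at chr2:19358212-19358490, was 279 bp wide, lay in an untranslated exon 272 bp downstream of the start and had no counterpart in KD. The other peaks were found in both lists at nearly the same width. A peak of 1473 bp in each list stood upstream of the start, with its centre 4385 bp away in CT and 4410 bp in KD. Another, of 1400 bp in CT and 1330 bp in KD, covered the start of LINC01376 downstream of the gene. The status of OSR1 therefore rested on a single narrow peak.

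In the mesenchyme group, SIX2 (chr2:45005182-45009452, minus strand) had 3 peaks in both lists, with 2737 bases in CT and 2821 in KD. The main start itself lay outside every H3K4me3 peak. In CT a peak of 1320 bp lay inside the gene, 407 bp from the start, and a peak of 1156 bp lay upstream, 389 bp from it, leaving 795 bp uncovered. In KD the uncovered stretch was 789 bp. The CT stretch had a GC content of 72.2%, against 61.1% and 63.2% in the peaks on either side. None of the 300 bases of the RefSeq promoter of SIX2 was under a peak, although it held 29 CpG dinucleotides, more than 75.8% of all promoters in that table. The 250 bases before the start are shown for that reason, with 26 CpG dinucleotides in capitals.

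SIX2 promoter, chr2:45009453-45009702, minus strand: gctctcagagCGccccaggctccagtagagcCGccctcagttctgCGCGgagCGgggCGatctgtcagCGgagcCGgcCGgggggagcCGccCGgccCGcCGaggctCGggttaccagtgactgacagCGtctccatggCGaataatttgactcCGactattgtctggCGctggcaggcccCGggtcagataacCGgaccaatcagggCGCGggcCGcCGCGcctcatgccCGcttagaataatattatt

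SALL1 (chr16:51135982-51152334, minus strand) had the most H3K4me3 near its start of the 9 genes. Within 5 kb of the start, 3063 bases were under peaks in CT and 3399 in KD, above 97.7% and 99.2% of all protein-coding genes. These bases came from several peaks and not from a broad one over the start. The start lay just outside the nearest peak, by 34 bp in CT and 42 bp in KD, at the edge of an uncovered stretch of 1611 bp in CT and 1591 bp in KD. The GC content of that stretch was 69.5% in CT, and that of the peaks beside it was 63.5% and 53.9%. An unnamed antisense lncRNA starts 500 bp downstream of the main start at 51151270, and its promoter carried H3K4me3 in both lists.

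EYA1 (chr8:71197433-71592025, minus strand) is by far the longest of the genes. Its window held 16 of the 53 peaks in CT and 17 of the 58 in KD, with 12799 and 11679 bases. The main start was covered by a peak of 1559 bp in CT and 1552 bp in KD, at a GC content of 42.4% and 42.5%, the lowest of the peaks that covered a main start here. All 13 distinct starts of its protein-coding transcripts had a peak within 1 kb, whereas the outermost start of the gene had none. Apart from 2 peaks upstream of the gene in each list, the remaining peaks were spread over introns. Of the 16 CT peaks, 13 lay further than 1 kb from any annotated start of a protein-coding gene or lncRNA. The same held for 46670 of the 73978 CT peaks genome-wide.

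WT1 (chr11:32387775-32435564, minus strand) had 2 peaks with 2156 bases in CT and 4 peaks with 2408 bases in KD. In CT a single peak of 1723 bp covered the main start and that of the antisense lncRNA WT1-AS, only 21 bp away. In KD the same stretch was called as peaks of 1184 bp and 417 bp that left 170 bp with the start uncovered, at a GC content of 73.5%. The other CT peak, 433 bp wide, lay downstream of the 3′ end of the gene and was 573 bp wide in KD.

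GATA3 (chr10:8045378-8075198, plus strand), the duct factor, had 11 peaks in each list, with 7075 bases in CT and 6754 in KD. These covered 10.1% and 9.67% of its window, and 15.8 peaks fell on each 100 kb in either list. GATA3 has 5 distinct starts of protein-coding transcripts, and 4 of them had a peak within 1 kb in CT and in KD. The main start at 8054688 was covered by a peak of 409 bp in CT. In KD the matching peak began 21 bp further downstream than the start, and 333 bp with a GC content of 73.0% remained uncovered. The 250 bases before this start held 26 CpG dinucleotides, shown in capitals, and are printed because H3K4me3 and CTCF peaks of CT reached over the last of them.

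GATA3 promoter, chr10:8054438-8054687, plus strand: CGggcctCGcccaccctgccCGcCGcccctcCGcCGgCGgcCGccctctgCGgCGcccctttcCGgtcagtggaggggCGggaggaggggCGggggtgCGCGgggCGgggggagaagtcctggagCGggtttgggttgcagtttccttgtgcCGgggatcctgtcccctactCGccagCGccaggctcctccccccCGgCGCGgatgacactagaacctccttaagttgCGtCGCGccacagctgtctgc

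Gaps at the start were common among all genes. Of the genes with a promoter peak, the start base was outside every peak for 3 of 8 in CT (SIX2, SALL1 and OSR1), beside 41.5% of all such genes, and for 4 of 7 in KD (SIX2, SALL1, WT1 and GATA3), beside 38.7%. The gap of OSR1 in CT differed from the others in base composition. It measured 3781 bp at a GC content of 54.4%, and the peaks on either side had 64.2% and 47.2%. Over all protein-coding genes in CT, the 201 bases around the start had a median GC content of 76.1% where the start was uncovered and a promoter peak lay beside it, 66.2% where a peak covered the start and 56.2% where there was no promoter peak. The part of base composition in these gaps was not tested.

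RefSeq promoters were found for 5 of the 9 genes (PAX2, PAX8, WT1, SIX2 and GATA3), 14 promoters in all. LHX1, SALL1, EYA1 and OSR1 were not matched. Of the 14, 7 overlapped an H3K4me3 peak in CT, from 3 genes, and had a median GC content of 66.7% and a median of 19 CpG dinucleotides in 300 bases. The other 7 had medians of 63% and 14. The mark was counted here over the 300 bases alone and not within 1 kb of the start. The other 7 thus included the promoter of SIX2 (64% and 29), which had peaks within 1 kb. Among all 35116 promoters of the table the contrast was wider, with medians of 65% and 25 over the 16511 promoters with the mark in CT and of 50.3% and 4 over the 18605 without it. The promoter of PAX8, at 62% and 13 CpG dinucleotides, was thus closer to those with the mark in GC content and lay between both medians in CpG number. The upstream promoter of PAX2, also without the mark, had 63.7% and 14.

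Around the start, most of the 9 genes had more H3K4me3 bases than the typical gene. Within 5 kb of the start the median over the 9 was 2467 bases in CT and 2462 in KD, beside 1522 and 1531 over all 20033 protein-coding genes. In CT, GATA3 had 2674 bases, SIX2 2592, LHX1 2510 and PAX2 2467, each above at least 90.0% of all genes. WT1 with 1723, OSR1 with 1631 and EYA1 with 1577 lay above 60.6%, 55.4% and 52.7% of all genes, and PAX8 had 0. The order in KD put SALL1 first again, followed by LHX1 with 3021 bases.

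**Figure D2:**
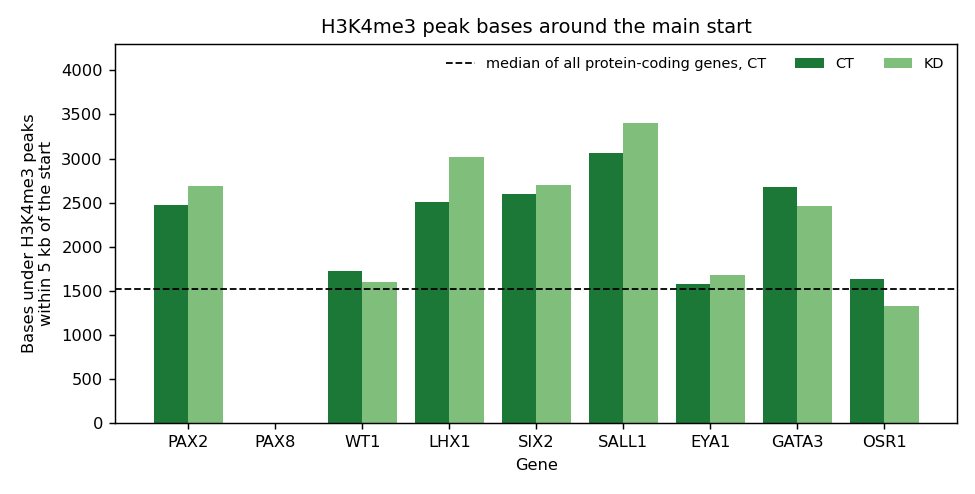
Bases under H3K4me3 peaks within 5 kb of the main start, by gene, in CT (dark bars) and KD (light bars), with the CT median of all protein-coding genes as a dashed line at 1522 bases. SALL1 stands highest in both lists and PAX8 is at 0.

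The 9 windows together held 53 H3K4me3 peaks and 43893 bases in CT and 58 peaks and 44431 bases in KD. A KD peak overlapped 50 of the 53 from CT (94.3%, beside 85.7% genome-wide), and a CT peak overlapped 51 of the 58 from KD (87.9%, beside 80.4%). The 3 CT peaks and 7 KD peaks without a counterpart were narrow, with a median width of 279 bp and 253 bp against 744 bp and 709 bp for those with one. Genome-wide the contrast was alike, with 261 bp in CT and 258 bp in KD against 635 bp and 646 bp. The log2 ratio of KD to CT bases per window ranged from -0.17 at OSR1 to 0.26 at PAX8, with a median of 0.08, while over the 18028 genes with bases in both lists the median was 0.03 and the central 90% lay between -0.28 and 0.46. None of the 9 differed by more than 1.5-fold in either direction, and such differences were also rare among those 18028 genes, of which 3.03% had more in KD by that rule and 1.24% had fewer. The promoter peak of OSR1, in CT alone, was the change in promoter status among the 9, beside 0.359% of all genes.

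Of the repressive marks, H3K27me3 had no peak in any of the 9 windows in CT or KD, and it had one in the windows of 5.55% and 3.60% of all protein-coding genes. H3K9me3 had 3 peaks in CT and 2 in KD, or 0.293 and 0.195 per 100 kb, beside 0.375 and 0.150 over the windows of all protein-coding genes. In CT they lay at EYA1 and WT1, 2 of 9 genes beside 28.0% of all genes, and in KD at EYA1 and PAX8, 2 of 9 beside 13.0%. The WT1 peak was 161 bp wide and 16622 bp upstream of the start, and the PAX8 peak of KD was 157 bp wide and 4812 bp upstream of the start, the closest repressive peak to any of the 9 starts. At EYA1, peaks of 167 bp in CT and 233 bp in KD overlapped each other in an intron of the longer transcripts, and the second CT peak there, 161 bp wide, had no counterpart. The input library had no peak in any window. Outside the windows, the nearest H3K27me3 peak to SIX2 stood 54.2 kb from its start in both CT and KD, where H3K9me3 peaks of both conditions lay too, and an input peak was found 55.1 kb from the start. For the other 8 genes it was 56.8 kb or further from the start in CT, and in KD the nearest of these stood 49.6 kb from OSR1. Both marks had short lists, with 6003 and 4804 peaks for H3K27me3 and 14546 and 8356 for H3K9me3 over the genome. Words of 24 bases that occur more than once in chromosomes 1 to 22, X and Y filled over 50% of the sequence in 91.0% of the H3K27me3 peaks of CT, 98.6% of those of KD and 98.2% of the input peaks. For H3K9me3 this held in 65.5% and 84.0%. The labels and the methods of the study give opposite antibodies for these marks, and the lists are named here by their titles, so which mark a list holds is not settled by the sources.

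CTCF peaks were found at all genes except LHX1 in at least 1 list. Over the 9 windows CT had 17 of them, KD 22 and OE 16. Per 100 kb this was 1.66, 2.15 and 1.56, beside 1.46, 1.71 and 1.67 over the windows of all protein-coding genes. In the repeat-masked lists the counts were 7, 14 and 7, or 0.683, 1.37 and 0.683 per 100 kb, beside 1.03, 1.02 and 0.878, so that CT lay below the value over all windows and not above it. EYA1 accounted for 5, 7 and 6 of the unmasked peaks in the same order, and without it the densities were 2.03, 2.54 and 1.69. The order of the lists depended on peak width: among peaks at least 300 bp wide there were 10 for CT, 8 for KD and 4 for OE. No density over all windows was computed at that width, so these counts have no background. Over the whole lists the median widths were 284, 290 and 273 bp. At least 1 peak was present at 6 of 9 genes in CT, 8 in KD and 6 in OE, where all genes stood at 73.9%, 81.1% and 78.5%. SIX2 and SALL1 had a peak in KD and none in CT, 2 of 9 genes beside 13.5% of all genes, and none had the opposite, found in 6.29%. Between CT and OE the presence of a peak differed at none of the 9, while 12.3% of all genes had a peak in OE alone of the pair and 7.68% in CT alone. LHX1, with H3K4me3 over 11.1% of its window in KD, had no CTCF peak in CT, KD or OE.

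**Figure D3:**
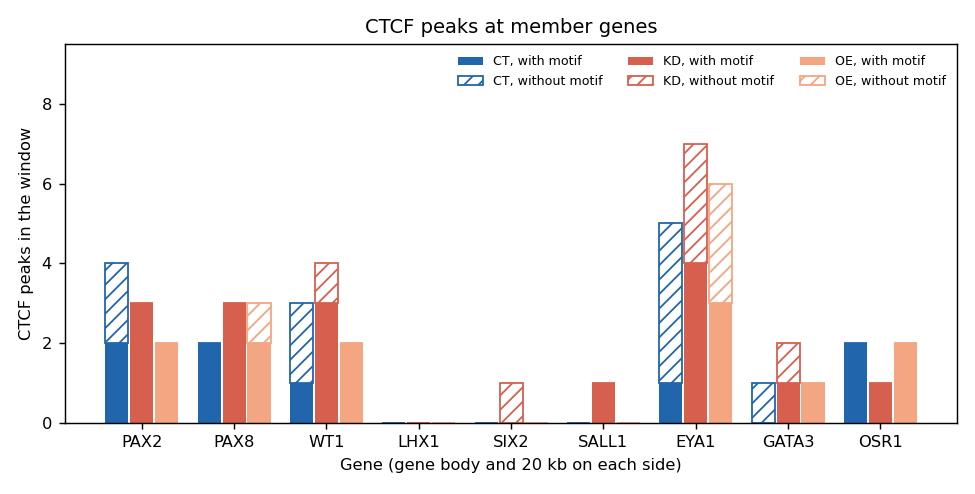
Number of CTCF peaks per gene window in CT, KD and OE, with filled bars for peaks that hold a CTCF motif and hatched bars for peaks without it. EYA1 has the most peaks in each list, LHX1 has none, and SIX2 and SALL1 have a peak in KD only.

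Joined where they overlapped, the CTCF peaks formed 34 sites. Of these, 7 were in all 3 lists, 7 in 2 lists and 20 in a single list. Genome-wide, 50323 of 83061 sites were in a single list. The 7 sites in all 3 lists made up 20.6%, beside 21.6% of sites genome-wide. CT alone had 6 (17.6%, beside 23.5%), KD alone 10 (29.4%, beside 17.7%) and OE alone 4 (11.8%, beside 19.3%). The 7 shared sites belonged to PAX2 and PAX8 with 2 each and to WT1, EYA1 and OSR1 with 1 each. A CTCF matrix of 19 positions was learned from 12493 peaks of repeat-masked reads that CT, KD and OE shared, and matches at p below 0.0001 on either strand were taken as motifs. All 7 shared sites held a motif, and at such sites genome-wide 80.99% of peaks did in CT, 81.7% for KD and 81.5% for OE. H3K4me3 of CT or KD overlapped 6 of the 7, beside 57.2% of the 17916 shared sites genome-wide. The exception was the PAX8 site in the intron. The sites of a single list held a motif in 7 of 20 cases, beside 22.3% of such sites genome-wide, and H3K4me3 overlapped 2 of the 20, beside 11.1%.

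The shared sites of PAX2 each overlapped H3K4me3. The first, at chr10:100729038-100729763, lay upstream of the gene inside the distal H3K4me3 block, 16181 bp from the main start. The second, at chr10:100743561-100743905, lay 1849 bp upstream of the main start, in an intron of the longer transcripts, at the outer edge of the promoter peak. Both matches were on the minus strand. At the first site the printed match lay in the peaks of CT and KD, while the OE peak ended before it and held another match. CT also had peaks of its own in an intron 24348 bp and 29055 bp downstream of the start, and neither held a match. The sequences of these matches with 30 bases on either side are given 5′ to 3′ on that strand in hg38, with the 19 matched bases in capitals, and beside them the match of a KD peak in an intron 72125 bp downstream of the start.

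PAX2 upstream site, chr10:100729610-100729688, minus strand: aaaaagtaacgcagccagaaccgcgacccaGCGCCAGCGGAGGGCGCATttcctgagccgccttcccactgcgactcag
PAX2 promoter-edge site, chr10:100743731-100743809, minus strand: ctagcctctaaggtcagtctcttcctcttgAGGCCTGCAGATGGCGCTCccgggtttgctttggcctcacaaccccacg
PAX2 intron site of KD, chr10:100817639-100817717, minus strand: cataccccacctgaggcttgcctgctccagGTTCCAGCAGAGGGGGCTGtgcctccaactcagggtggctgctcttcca

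PAX8, the gene without promoter H3K4me3, was not short of CTCF, with 2 peaks for CT, 3 for KD and 3 for OE. Its shared sites lay in PSD4 downstream of the gene, at chr2:113203955-113204297, and in an intron 29588 bp downstream of the start, at chr2:113249170-113249495. Each was also called in the repeat-masked lists of CT, KD and OE. A KD peak 18734 bp upstream of the start held a match as well, and an OE peak in an intron 5627 bp downstream of the start held none. All 3 matches were on the plus strand, opposite to the direction of PAX8. The first is shown with 5 bases on either side, as it lies in an untranslated exon of PSD4, and the others with 30.

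PAX8 site in PSD4, chr2:113204079-113204107, plus strand: acatgTGACCACTTGGAGGCAGGCttgca
PAX8 intron site, chr2:113249315-113249393, plus strand: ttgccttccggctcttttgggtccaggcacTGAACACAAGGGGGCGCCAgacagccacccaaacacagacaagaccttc
PAX8 upstream site of KD, chr2:113297731-113297809, plus strand: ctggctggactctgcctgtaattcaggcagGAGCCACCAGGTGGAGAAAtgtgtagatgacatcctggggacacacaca

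WT1 had 3 CTCF peaks from CT, 4 from KD and 2 from OE. The shared site, at chr11:32385965-32386422, lay downstream of the 3′ end of the gene and overlapped an H3K4me3 peak of 234 bp that KD had alone. A site 845 bp downstream of the main start, under the promoter H3K4me3, was called in CT and KD and held no match. A site 12900 bp upstream of the start, inside WT1-AS, was called in KD and OE and in the repeat-masked lists of CT, KD and OE, and its match passed the p threshold of 0.0001 but not 0.00001. Not every site of this window is described here. The matches of the shared site and of the upstream site were on the plus strand and are shown with 30 bases on either side, again with the matched bases in capitals.

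WT1 downstream shared site, chr11:32386122-32386200, plus strand: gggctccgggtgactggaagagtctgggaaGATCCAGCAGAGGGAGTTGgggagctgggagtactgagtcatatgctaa
WT1 upstream site of KD and OE, chr11:32448363-32448441, plus strand: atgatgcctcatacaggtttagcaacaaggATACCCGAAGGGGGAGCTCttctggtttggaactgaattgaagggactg

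At GATA3 the lists differed in where the CTCF peaks lay. CT had a peak of 380 bp at chr10:8054593-8054972 that covered the main start, overlapped H3K4me3 and held no match. KD and OE instead had overlapping peaks at chr10:8053318-8053556, at the start of the antisense lncRNA GATA3-AS1 and 1251 bp upstream of the main start of GATA3, each with a match that passed the p threshold of 0.0001 but not 0.00001. The KD match was on the minus strand, and the OE peak, which began inside it, held another on the plus strand. KD also had a peak without a match 2363 bp downstream of the start. None of these was called in a repeat-masked list. The match of the KD peak is printed in capitals.

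GATA3-AS1 site, match of KD, chr10:8053304-8053382, minus strand: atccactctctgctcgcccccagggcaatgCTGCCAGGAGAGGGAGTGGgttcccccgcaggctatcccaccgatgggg

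OSR1 had a shared CTCF site at chr2:19362913-19363335, 4501 bp upstream of its start and inside the upstream H3K4me3 peak. It was also called in all 3 repeat-masked lists and held a match. A further site 10948 bp upstream was found in CT and OE and, among repeat-masked lists, in KD. The lone peaks of SIX2 and SALL1, both in KD, differed from each other. That of SIX2, 17105 bp downstream of the start, had a GC content of 29.8% and no match, and that of SALL1, in an intron 4928 bp downstream of the start, held a match, again not at the stricter threshold, and was called in the repeat-masked KD list.

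EYA1 had 13 CTCF sites, more than any other gene here, and only the most distal of them, upstream of the gene and under H3K4me3, was in all 3 lists. Of its 5 CT peaks 4 held no match, and 3 of those 4 consisted largely of sequence found elsewhere in the genome. In these peaks, at 71330907, 71411010 and 71456102, 69.5%, 100% and 100% of the words of 24 bases occurred more than once. The last overlapped the H3K9me3 peaks of CT and KD and a CTCF peak of OE, in which 98.7% of the words were repeated. It was the only CTCF site of the 34 under H3K9me3. Over the 9 windows, 3 of 17 CT peaks, 1 of 22 KD peaks and 2 of 16 OE peaks had more than 50% repeated words, beside 32.7%, 22.4% and 25.3% of all peaks in those lists, and each of the 6 lay at EYA1.

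The share of CTCF peaks with a motif was 8 of 17 in CT (47.1%), 16 of 22 in KD (72.7%) and 12 of 16 in OE (75%), beside 46.0%, 67.1% and 57.7% of all peaks in those lists. In the 9 windows the order of KD and OE depended on the motif rule. At p below 0.00001 the counts for CT, KD and OE were 8, 13 and 9 (47.1%, 59.1% and 56.3%). All peaks in those lists stood at 37.2%, 55.8% and 47.9%. By consensus with at most 1 mismatch the counts were 6, 11 and 7 (35.3%, 50% and 43.8%), beside 30.7%, 44.8% and 38.6%. Over all peaks the share was higher in KD than in OE under each rule. Peaks that CT had alone held a motif in 0 of 6 cases, beside 13.6% of such peaks genome-wide. Those of KD alone held it in 6 of 10, beside 39.7%, and those of OE alone in 1 of 4, beside 17.1%. Of the sites that KD had and CT had not, 9 of 13 held a motif, beside 57.9% of such sites genome-wide, and of those that CT had and KD had not, 1 of 8, beside 14.8%. The contrast between these classes was thus also found over the genome. CT served in both the comparison with KD and that with OE. The labels give a p threshold of 0.0025 for the CTCF lists of CT and KD and of 0.005 for OE, so the lists do not share a threshold.

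**Figure D4:**
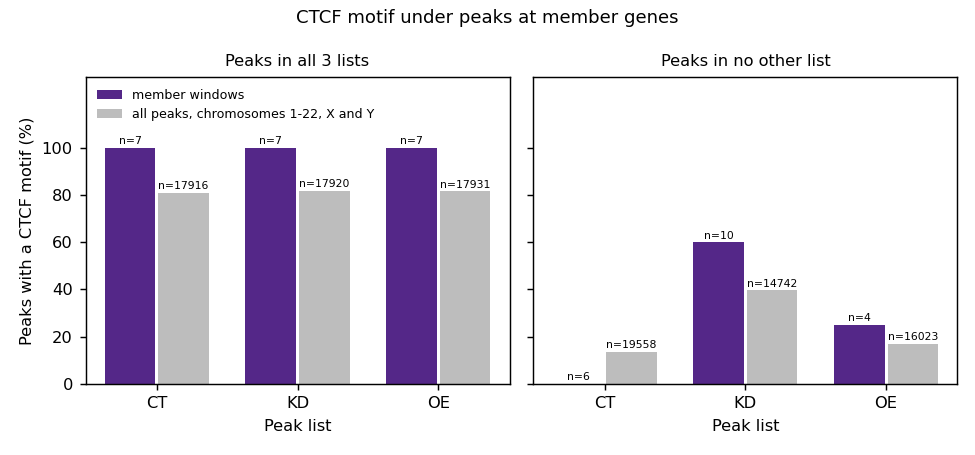
Percentage of CTCF peaks with a motif in the 9 windows (purple) and over all peaks of chromosomes 1 to 22, X and Y (grey), for peaks in all 3 lists (left) and in no other list (right), with the number of peaks above each bar. Each of the 7 shared peaks held a motif, and none of the 6 peaks of CT alone did. The matrix was learned from peaks of repeat-masked reads that CT, KD and OE shared.

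Other genes of the kidney and of other tissues gave a frame for the promoter counts. Of 30 further transcription factors of kidney development, 20 had promoter H3K4me3 in CT and 23 in KD. The 3 that differed were FOXC1, HOXD11 and TFAP2B, each with a peak in KD alone that covered 230, 497 and 219 promoter bases. The most bases within 5 kb of the start in CT were at FOXC1 (4318), TBX18 (3678) and TFAP2A (3228), so FOXC1 led its list although no CT peak came within 1 kb of its start. Of 20 signalling genes of the kidney, 18 had the mark in CT and 18 in KD, led by FRAS1 with 3330 bases, FGF9 with 3136 and SPRY1 with 2937. Genes of the differentiated kidney differed from these, with the mark at 2 of 12 in CT (PODXL and LRP2) and 3 of 12 in KD, where SYNPO was added with 200 promoter bases. Of the differentiated genes, LRP2 had 2685 bases within 5 kb in CT, PODXL 1630 and SLC34A1 590, the last with none in its promoter.

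Transcription factors of other tissues had promoter H3K4me3 in 11 of 20 cases in CT and in KD, with CDX2 (2921 bases in CT), NEUROG2 (2726) and NKX2-5 (2687) at the top. Neuronal and adrenal markers, listed because such genes are used to describe this cell line, had it in 4 of 10 in CT and 5 of 10 in KD, where STMN2 had a peak in KD alone over 398 promoter bases. NEFL led that list with 2995 bases in CT, followed by STMN2 with 2294 and NEFM with 1546. All 10 housekeeping genes had the mark in both lists, led by TBP with 3340 bases, GAPDH with 2943 and POLR2A with 2551. Over all protein-coding genes the share was 69.7% in CT and 70.4% in KD. The further kidney factors, at 66.7% and 76.7%, lay on either side of it, the signalling genes stood above it at 90% in both lists, and factors of other tissues (55% in both) and genes of the differentiated kidney (16.7% and 25%) stood below it. Median H3K4me3 bases within 5 kb in CT were 2467 for the 9 genes, 2261.5 for further kidney factors, 2065 for signalling and 2356.5 for housekeeping genes. They were 1331 for factors of other tissues, 724 for neuronal and adrenal markers and 97 for the differentiated kidney. H3K27me3 was present in the window of 1 of the 30 kidney factors in CT (ETV4) and none in KD, and in those of 3 of the 20 signalling genes in CT (WNT7B, ROBO2 and FRAS1) and 1 in KD (FRAS1), all named after their values were seen. It had no peak at the genes of the remaining lists, beside 5.55% and 3.60% of all protein-coding genes.

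**Figure D5:**
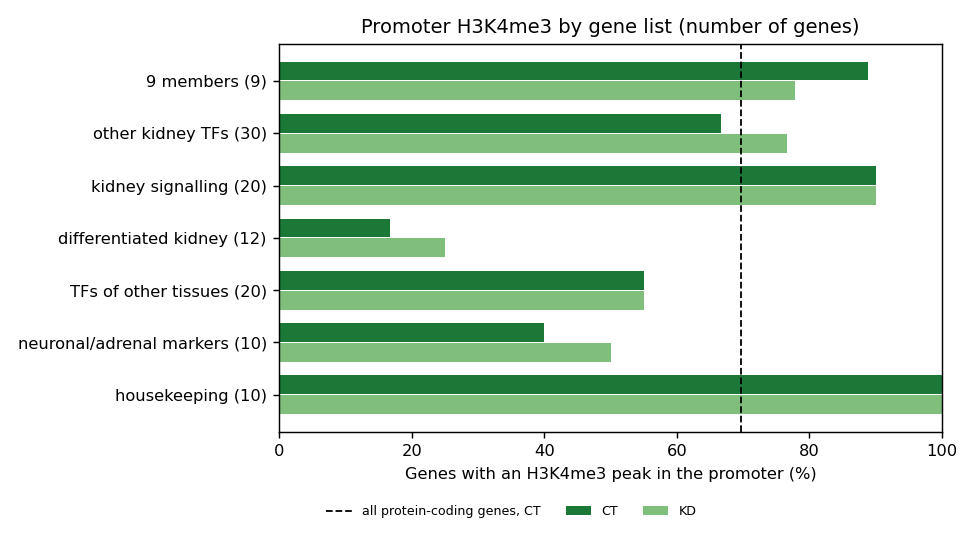
Percentage of genes with an H3K4me3 peak within 1 kb of the main start in CT (dark) and KD (light) for the 9 genes and 6 other lists, with the number of genes in brackets and the CT value of all protein-coding genes (69.7%) as a dashed line. The 9 genes stand at 88.9% in CT and 77.8% in KD, and genes of the differentiated kidney at 16.7% and 25%.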

How the data were processed

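The authors trimmed single-end Ion Torrent reads, mapped them with bowtie2 to hg38, with or without masked repeats, and used MACS2 on each library to call peaks. Per the labels the p thresholds were 0.0025 (CTCF in CT and KD), 0.005 (CTCF in OE) and 0.001 (histone marks, input and repeat-masked lists), while the methods give 0.005 for unmasked reads. The deposited values are genome positions, with no score, and the read depth behind a peak is unknown. For CTCF and each histone mark the study lists more mapped reads in CT than in KD. Among the CTCF libraries OE had the fewest. No adjustment for these differences was made here. Starts were read as counted from 0. Counting from 1 would shift them by 1 bp. In all, 13 lists were used, each from 1 library, with unmasked CTCF lists as the main ones, and the 6 lists of exclusive peaks were not used. Genes came from GENCODE release 44. Overlaps, covered bases, CTCF matches and 24-base words were computed in Python 3.11.15 with numpy 2.4.6, pysam 0.24.0 and numba 0.67.0, after tests on simulated data. The members and gene lists were chosen with earlier results of these data known. All 9 members are named, and of each other list the genes whose promoter H3K4me3 status differed between CT and KD and the 3 with the most H3K4me3 bases within 5 kb of the start in CT. Genes of those lists with an H3K27me3 peak in their window are named as well.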

Additional observations from a re-analysis of the deposited data

How the results depend on the processing

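Of 73 values recomputed under an alternative, 62 stayed within 1.5 times the main count and 11 did not. With only H3K4me3 peaks at least 1000 bp wide, 5 of 9 genes had the promoter mark in CT and 6 in KD, which turned their order. No share of all genes was computed at that width. With the repeat-masked lists, CTCF peaks numbered 7 (CT), 14 (KD) and 7 (OE). With only CTCF peaks at least 300 bp wide they held 10, 8 and 4, counts with no value over all windows beside them. This also turned the order of CT and KD. The cause was not tested. Without EYA1, a choice made after seeing the data, OE had 10 CTCF peaks. A flank of 50 kb gave 5 H3K9me3 peaks in CT and 1 H3K27me3 peak in KD. Searched by consensus, allowing 1 mismatch, 7 OE peaks held a motif, and the share in OE fell below that in KD, as it did at p below 0.00001. Narrower and wider promoters, other transcript starts, peaks by their centre and the removal of input peaks kept the counts within that range, although from the outermost start 6 genes had the mark in CT and 5 in KD. The share of all genes from the outermost start was not computed either. The unknown number of reads per peak limits what the absence of a peak shows.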
